A study of Mus musculus with 4 samples.

Results

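Autophagy and lysosome genes were examined in C2C12 cells, a mouse myoblast line whose cells stop dividing and fuse into muscle fibres once serum is reduced. The genes were taken by name: the Atg and Ulk families, Becn1, the Wipi genes, the LC3 and GABARAP family, Sqstm1, the cathepsins, the Lamp genes, the subunits of the vacuolar proton pump (V-ATPase) named Atp6v, and the transcription factor genes Tfeb and Tfe3. The pattern matched 68 transcript clusters with a single gene symbol, which stood for 67 of the 14806 genes measured. Atg2b alone had 2 clusters, and the brighter was used (log2 changes 0.24 and 0.15). Another 4 clusters that carried several symbols were left out. The name pattern uses no measured value, and it was chosen with earlier results of these data known.

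Total RNA was hybridised to 4 mouse exon arrays, 2 for each condition, which the series describes as biological replicates. Growth cells were kept in DMEM with 10% fetal bovine serum and were collected at 60 to 70% confluency. Differentiation cells were brought to full confluency, moved to DMEM with 2% horse serum and collected 24 h after induction. Every array came from the same line, no gene was altered in either group, and density, the kind and amount of serum and the state of differentiation changed together and cannot be told apart. The labels do not say whether the replicates were separate cultures, so the p-values measure the spread between arrays. Values are linear intensities, 1 per transcript cluster, with no detection call. A change is the differentiation mean less the growth mean of log2(intensity + 16), given with its limma standard error (SE). It understates the change of dim genes. A gene "rose" or "fell" where limma's Benjamini-Hochberg adjusted p over all 16658 clusters was under 0.05. Fold values are ratios of the group means of intensity.

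Array medians were 168 to 177, and the 4 arrays held 66 to 104 clusters listed at 0, none of them one of the 67 genes. All 8 markers of skeletal muscle cells had a positive change (beside 49.2% of all clusters) and 5 rose (62.5%, beside 8.64%). Among the 5 was Myog, a differentiation factor (674 ± 38.6 to 1785 ± 148, SD, n = 2; log2 change 1.38 ± 0.18 SE).

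Autophagy encloses cytoplasm in a double membrane, the autophagosome, and delivers it to the lysosome for breakdown. The Ulk1 kinase complex starts the process, a phosphoinositide kinase complex containing Becn1 marks the site, and small ubiquitin-like proteins of the Atg8 family (LC3 and GABARAP) are joined to the growing membrane. In the lysosome, cathepsins digest protein at the low pH that the V-ATPase maintains. Remodelling of muscle cells is known to draw on this route, and TFEB, TFE3 and MITF are known activators of lysosomal genes. RNA levels were measured here, not protein, lysosome number or the rate of autophagy. In bulk RNA, fewer cells of a type and less RNA per cell cannot be told apart.

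Of the 67 genes, 11 rose, 2 fell and 54 did not pass. The 11 that rose are 16.4% of the genes, beside 8.64% of all clusters, and the 2 that fell are 2.99%, beside 7.52% of all clusters. The median change was 0.32, beside -0.01 over all clusters. For 39 genes both differentiation arrays lay above both growth arrays (58.2%, beside 30.8% of all clusters), and for 7 both lay below (10.4%, beside 30.1%). Groups without overlap in either direction made up 60.8% of all clusters, and limma's calls in either direction 16.2%. At an unadjusted p under 0.05, 25 of the 67 genes were higher and 6 lower, beside 17.8% and 15.2% of all clusters. The 11 that rose belonged to the initiation complex (Ulk1, Atg13), lipid transfer (Atg2a), the Atg8 family and its protease (Map1lc3a, Map1lc3b, Gabarapl1, Atg4c), the cathepsins (Ctsf, Ctso, Ctsc) and the V-ATPase (Atp6v0d2).

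The counts rested on the arrays used. Without growth replicate 1, 6 genes rose (3.14% of all clusters were then higher) and 0 fell (4.44% lower). Without growth replicate 2, 10 rose (7.14%) and 1 fell (5.04%). Without differentiation replicate 1, 4 rose (1.88%) and 0 fell (2.75%), and without differentiation replicate 2, 3 rose (1.83%) and 0 fell (2.68%). An offset of 1 in place of 16 gave 5 higher (3.17%) and 0 lower (3.73%), and requiring changes beyond 1.5-fold (limma treat) gave 4 higher (1.22%) and 0 lower (2.13%). Map1lc3a, Ctsf and Atp6v0d2 rose under each of these settings and under the others tried.

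**Figure D1:**
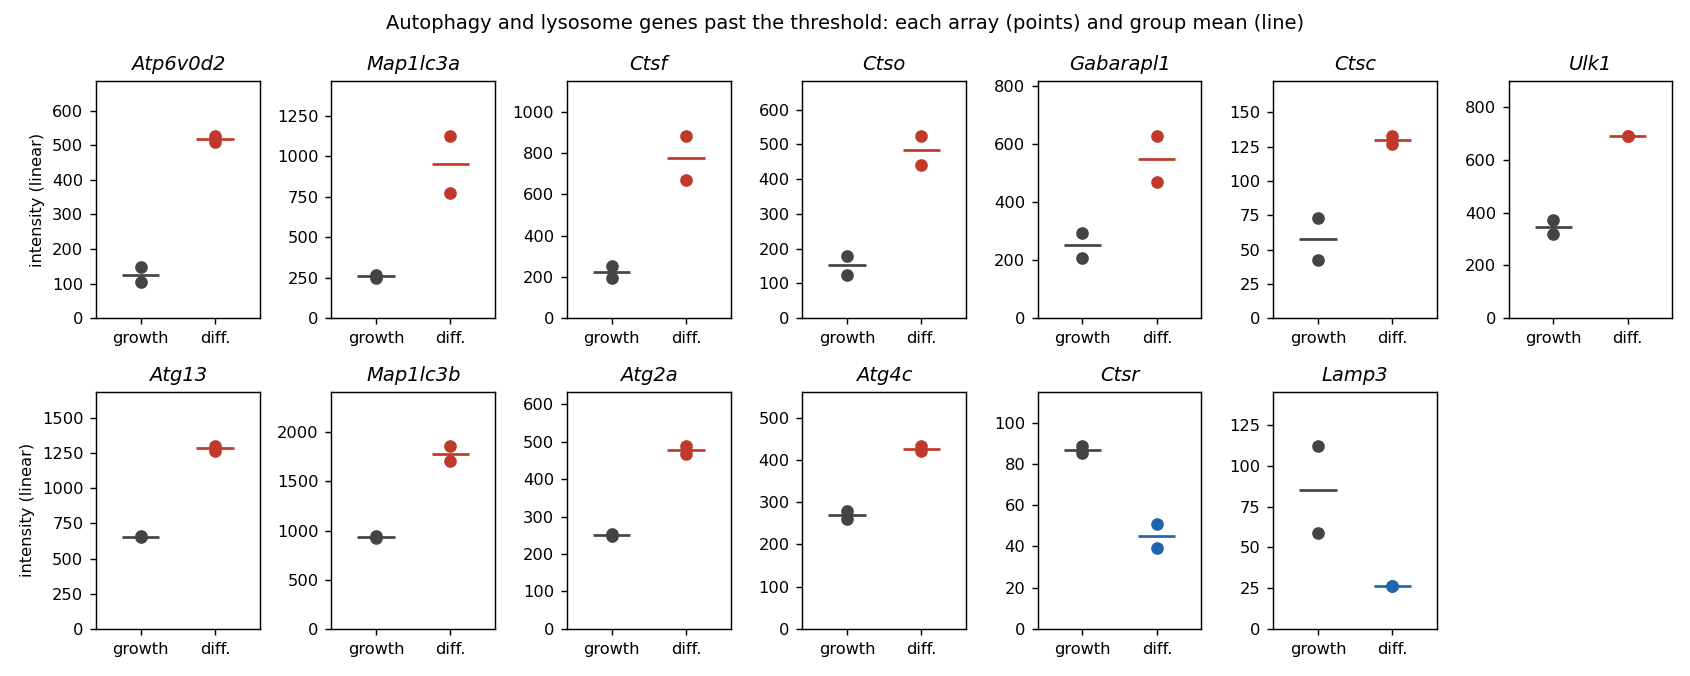
Linear intensity of the 13 genes past the threshold on each array (points) with the group mean (line), for growth (grey) and differentiation (red where higher, blue where lower). In no panel do the groups overlap, and Ctsc, Ctsr and Lamp3 stay at or below an intensity of 133.

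Of the 5 genes of the Ulk family and its partners, 2 rose (40%, beside 8.64% of all clusters) and 3 did not pass. Ulk1, the initiating kinase, gave 372 and 320.0 in growth and 690.1 and 692 in differentiation. Its differentiation arrays were nearly equal and well above growth, and it rose by 0.97 ± 0.18 (adjusted p = 0.0112). Atg13, the regulatory partner that Ulk1 phosphorylates, gave 651 and 658 in growth and 1267 and 1296 in differentiation. The groups were far apart, and Atg13 rose by 0.95 ± 0.18 (adjusted p = 0.0103). Ulk2, the close paralog of Ulk1, went from 598 and 621 to 831 and 959, a change of 0.54 ± 0.18 that did not pass (adjusted p = 0.0834). Atg101, which stabilises Atg13, changed by 0.17 ± 0.18 and did not pass. The pseudokinase Ulk4, counted here by its family name, was the exception in direction. It gave 93.1 and 53.6 in growth and 45.8 and 44.2 in differentiation (-0.51 ± 0.24; adjusted p = 0.178). The calls of Ulk1 and Atg13 ended when either differentiation array was left out, with changes of 0.97 for Ulk1 under both omissions and 0.97 and 0.94 for Atg13. The call of Ulk1 also ended with an offset of 1 (adjusted p = 0.051).

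All 7 genes of nucleation and membrane supply had a positive change (beside 49.2% of all clusters), and 1 of them rose (14.3%, beside 8.64%). Atg2a, a lipid transfer protein that feeds the growing membrane, gave 249 and 254 in growth and 487 and 466 in differentiation. Its groups did not overlap, and it rose by 0.88 ± 0.18 (adjusted p = 0.0142). Its paralog Atg2b went from 309.5 and 342 to 381 and 393 (0.24 ± 0.18; adjusted p = 0.381). The Wipi proteins bind the lipid made at the site of nucleation. Wipi1 went from 452 and 546 to 753 and 769.7 (0.60 ± 0.19; adjusted p = 0.0665), and Wipi2 changed by 0.48 ± 0.21 (adjusted p = 0.148). Becn1, the kinase complex subunit, gave 972 and 1039 in growth and 1113 and 1429 in differentiation (0.32 ± 0.20; adjusted p = 0.291), and its change was 0.50 without differentiation replicate 1 and 0.14 without differentiation replicate 2. Atg9a, a lipid scramblase carried on vesicles, changed by 0.37 ± 0.18 (adjusted p = 0.196), and Atg9b was dim on all arrays at 14.4 to 18.2. The arrays of the groups were apart, with differentiation above growth, for 6 of the 7, Atg9b excepted (85.7%, beside 30.8% of all clusters). Atg2a no longer passed with an offset of 1, nor when growth replicate 1 or either differentiation array was omitted.

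Of the 7 conjugation genes 5 had a positive change (71.4%, beside 49.2% of all clusters), 2 a negative one and 1 rose (14.3%, beside 8.64%). This was Atg4c, of the proteases that trim Atg8 proteins before conjugation and release them afterwards, which gave 261 and 278 in growth and 421 and 432 in differentiation. It rose by 0.63 ± 0.18 and lay just inside the threshold (adjusted p = 0.0482). That call ended with a robust prior, with the replicate block, with an offset of 1 and when any 1 of the 4 arrays was omitted. The other proteases of the family did not pass: Atg4b changed by 0.36 ± 0.23, Atg4a by 0.07 ± 0.19 and Atg4d by -0.06 ± 0.23. Atg12, a ubiquitin-like protein, went from 1131 and 1080.5 to 1421 and 1709 (0.49 ± 0.19; adjusted p = 0.114), and Atg10, the enzyme that conjugates it, from 139 and 187 to 229 and 294 (0.64 ± 0.22; adjusted p = 0.0845). Atg5, the protein to which Atg12 is joined, gave 184 and 311 in growth and 229.5 and 198 in differentiation. Its groups overlapped (-0.16 ± 0.26; adjusted p = 0.689).

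Of the 5 Atg8 family genes measured, 3 rose. Counted with the cargo receptor gene Sqstm1 they were 50% of 6 genes, beside 8.64% of all clusters. Map1lc3a, which encodes LC3A, gave 250.3 and 266 in growth and 772 and 1126 in differentiation. The lower differentiation array was far above both growth arrays, and the gene was 3.67-fold higher (1.79 ± 0.22; adjusted p = 0.00181). Map1lc3b, which encodes the LC3 form most used as a marker of autophagosomes, gave 929 and 945 in growth and 1710.2 and 1854 in differentiation, and rose by 0.92 ± 0.18 (adjusted p = 0.0126). Gabarapl1 gave 209 and 292 in growth and 469 and 627 in differentiation. Its replicates were more spread, and it rose by 1.09 ± 0.23 (adjusted p = 0.0188). Gabarap, of the same subfamily, was 1.36-fold higher, with 3328 and 3721 against 4515 and 5105, and did not pass (0.45 ± 0.19; adjusted p = 0.139). Gabarapl2 was dim, at 19.7 and 42 in growth and 35.8 and 28.7 in differentiation, with overlapping groups (0.08 ± 0.25). Sqstm1, the receptor that links ubiquitinated cargo to Atg8 proteins, gave 3743 and 4646 in growth and 5404 and 5005 in differentiation (0.32 ± 0.19; adjusted p = 0.289), and its change was 0.16 without growth replicate 1. Map1lc3b and Gabarapl1 no longer passed with an offset of 1, nor when growth replicate 1 or either differentiation array was omitted.

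The 25 genes above were grouped as autophagy machinery, Ulk4 by its family name. Among them 7 rose and 0 fell in limma, and the count at an unadjusted p under 0.05 was 13 higher and 0 lower. These are 28.0% called higher, beside 8.64% of all clusters, and 52.0% higher at the unadjusted p, beside 17.8%. Of all clusters 7.52% were called lower, and 15.2% were lower at the unadjusted p. The median change was 0.45.

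The transcription factor genes Tfeb and Tfe3 did not pass. Tfeb gave 92.5 and 115 in growth and 112 and 178 in differentiation, so that its groups overlapped (0.40 ± 0.24; adjusted p = 0.283). Its change was 0.27 without growth replicate 1, 0.70 without differentiation replicate 1 and 0.10 without differentiation replicate 2. Tfe3 gave 578 and 508 in growth and 499 and 511 in differentiation (-0.10 ± 0.18; adjusted p = 0.731), and its change ran from -0.19 without growth replicate 2 to -0.01 without growth replicate 1. Mitf, of the same family, is outside the name pattern. It went from 120.4 and 108 to 186 and 203 and rose by 0.69 ± 0.18 (adjusted p = 0.0382). Its call ended with the replicate block, with an offset of 1 and when any 1 of the 4 arrays was omitted. These proteins are controlled mainly by their movement into the nucleus, which arrays do not measure.

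**Figure D2:**
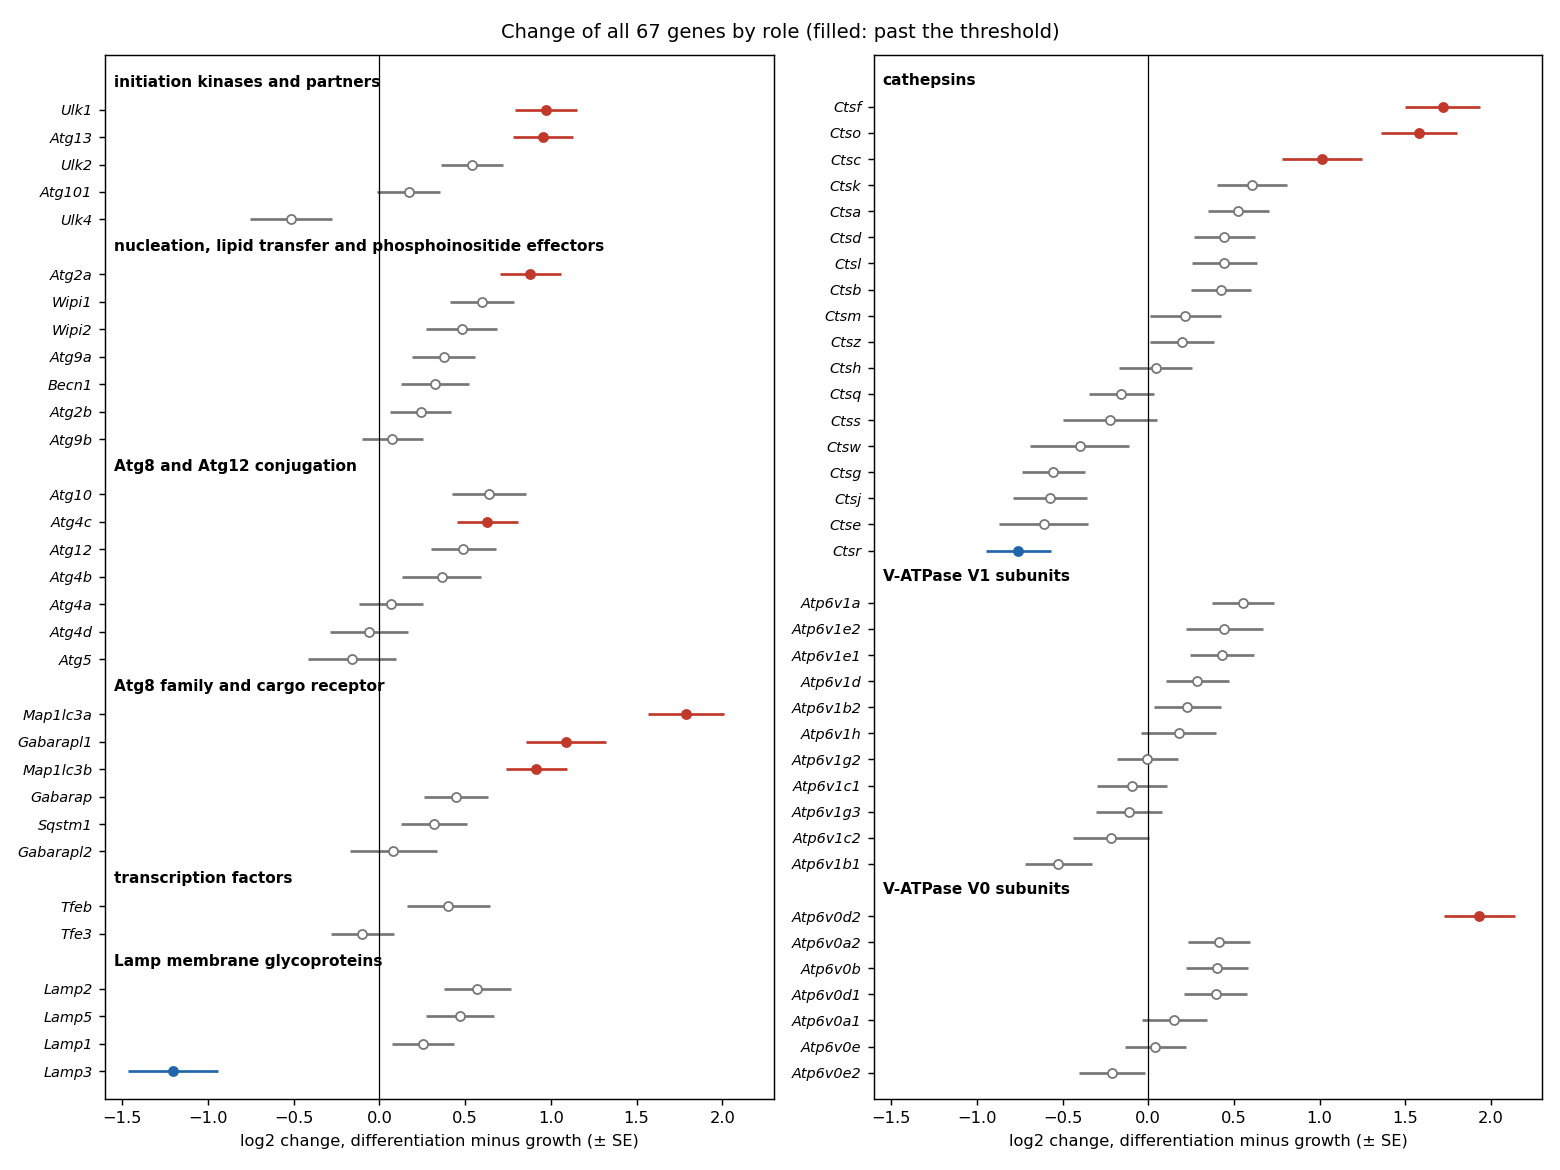
Log2 change (differentiation minus growth) with its limma SE for each of the 67 genes, grouped by role. Filled points passed the threshold (red higher, blue lower) and open points did not. The points of nucleation and of the Atg8 family all lie right of 0, whereas the cathepsins spread from -0.76 (Ctsr) to 1.72 (Ctsf).

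Among 18 cathepsins, 3 rose (16.7%, beside 8.64% of all clusters), 1 fell (5.56%, beside 7.52%) and 14 did not pass. Ctsf, a cysteine protease, gave 251 and 197 in growth and 668 and 885 in differentiation. It was 3.46-fold higher, with the groups well apart (1.72 ± 0.22; adjusted p = 0.00196). Ctso, another cysteine protease, gave 125 and 180.0 in growth and 441 and 525 in differentiation, a 3.17-fold difference (1.58 ± 0.22; adjusted p = 0.00306). Its call ended without differentiation replicate 2 (adjusted p = 0.0529). Ctsc, a dipeptidyl peptidase known for activating the serine proteases of immune cell granules, gave 42.7 and 73.2 in growth and 133 and 127 in differentiation. It was dim in growth, where its replicates differed widely, and it rose by 1.01 ± 0.23 (adjusted p = 0.024). The call of Ctsc ended with an offset of 1 and when growth replicate 1 or either differentiation array was omitted.

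The general digestive cathepsins differed by less. Ctsb, a cysteine protease, went from 3853 and 3948 to 5172 and 5295 and was 1.34-fold higher (0.42 ± 0.18; adjusted p = 0.139). Ctsl, another cysteine protease, went from 3903 and 4514 to 6144 and 5317 (0.44 ± 0.19; adjusted p = 0.149). Ctsd, the main aspartic protease of lysosomes, went from 4770.2 and 4944 to 6367 and 6868 (0.44 ± 0.18; adjusted p = 0.127). In each of these 3 genes the groups did not overlap, yet none passed. Ctsa, a serine carboxypeptidase that also protects lysosomal neuraminidase and beta-galactosidase, went from 4149.6 and 4329 to 6065 and 6156 (0.53 ± 0.18; adjusted p = 0.0804). Ctsz, a carboxypeptidase, changed by 0.20 ± 0.19, and Ctsh, an aminopeptidase, by 0.04 ± 0.21. Ctsk, the collagen-degrading protease of osteoclasts, was dim at 34.2 and 51.2 in growth and 73 and 71.7 in differentiation (0.61 ± 0.21; adjusted p = 0.0828). With an intensity trend in limma's variance prior Ctsa, Ctsb, Ctsd and Ctsl passed, as did 28 of the 67 genes in the higher direction, when 14.5% of all clusters were higher and 11.7% lower.

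Of the 18 cathepsins 11 lay below the median intensity of all clusters, Ctsc, Ctsk and Ctsh among them. A negative change was seen in 7 of the 11 (63.6%), beside 55.1% of all clusters below that intensity. Ctsr, of the rodent cathepsins made in placenta, gave 88.4 and 85.1 in growth and 39.2 and 50.9 in differentiation, and fell (-0.76 ± 0.19; adjusted p = 0.0326). Its relatives Ctsj (-0.57 ± 0.21; adjusted p = 0.107), Ctsq (-0.16 ± 0.19) and Ctsm (0.22 ± 0.21) did not pass and gave at most 39.4 on any array. These 4 genes lie on chromosome 13 and are close relatives, and how far their probes share signal was not tested. Ctsg, a serine protease of neutrophils, changed by -0.55 ± 0.18 (adjusted p = 0.0786), Ctse, an aspartic protease, by -0.61 ± 0.26, Ctsw, a protease of T and natural killer cells, by -0.40 ± 0.29, and Ctss, of antigen-presenting cells, by -0.22 ± 0.27. Of 9 macrophage markers measured, 2 fell (22.2%, beside 7.52% of all clusters) and 0 rose. The 9 had a summed intensity of 927 and 926 in growth and 727 and 713 in differentiation. The 2 that fell were Ptprc, which encodes the leukocyte antigen CD45, and Cd68. Ptprc, the dimmest, gave 4.87 to 28.2 on the 4 arrays, and Cd68 changed by -0.77 ± 0.20 (adjusted p = 0.0354). Fcgr1, the brightest, gave 274 to 395 and did not pass. Cd14 went the other way without passing (0.55 ± 0.22), and no marker was at 0. Every array came from the C2C12 line. These marker values do not show that macrophages were present, and their bearing on the cathepsin values was not tested.

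Of the 4 Lamp genes 1 fell (25%, beside 7.52% of all clusters) and 0 rose (beside 8.64%). At an unadjusted p under 0.05, 2 were higher and 1 lower (50% and 25%, beside 17.8% and 15.2% of all clusters). Lamp1, a main glycoprotein of the lysosomal membrane, gave 4666 and 4568 in growth and 5756 and 5269 in differentiation (0.25 ± 0.18; adjusted p = 0.352). Lamp2, whose loss in human Danon disease fills muscle with autophagic vacuoles, went from 2027 and 2569 to 3285 and 3516 (0.57 ± 0.20; adjusted p = 0.086). Both genes had arrays of the groups apart without passing. Lamp3, known from mature dendritic cells and lung, gave 112 and 59.1 in growth and 26.6 and 26.5 in differentiation. It fell by 1.20 on the log2 scale (SE 0.26; adjusted p = 0.0195) from growth replicates that lay far apart. Lamp5, known from neurons, was dim at 14.8 to 35 and changed by 0.47 ± 0.20. Lamp3 and Ctsr no longer passed with an offset of 1, nor when growth replicate 1 or either differentiation array was omitted, and Ctsr also not without growth replicate 2.

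Of 18 V-ATPase subunit genes 1 rose and 0 fell in limma, and 2 were higher and 1 lower at an unadjusted p under 0.05. The 5.56% that rose is below the 8.64% of all clusters, and the 11.1% higher at the unadjusted p is below 17.8%. Of all clusters 7.52% fell, and 15.2% were lower at the unadjusted p, beside 5.56% of these genes. Both differentiation arrays lay above both growth arrays for 9 of the 18 genes (50%, beside 30.8% of all clusters). For 1 both lay below (5.56%, beside 30.1%), and the median change was 0.20, beside -0.01 over all clusters. Atp6v0d2, the d2 form of a subunit of the membrane sector V0, known from osteoclasts, macrophages and kidney, gave 104 and 147 in growth and 509.6 and 527 in differentiation. It was 4.13-fold higher, the largest change of the 67 genes (1.93 ± 0.21; adjusted p = 0.000906). Its ubiquitous counterpart Atp6v0d1 went from 1313 and 1515 to 1788 and 1928 (0.39 ± 0.18; adjusted p = 0.182), and the difference between the changes of the 2 forms was not tested. In macrophages and osteoclasts Atp6v0d2 is known to take part in cell fusion.

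The other V0 genes did not pass. Atp6v0b, of the proton-conducting ring, went from 2589.5 and 2956 to 3642 and 3683 (0.40 ± 0.18; adjusted p = 0.167). The alternative a subunits, which set where the pump is placed, changed by 0.41 ± 0.18 (Atp6v0a2) and 0.15 ± 0.19 (Atp6v0a1). Tcirg1, the a3 form, is outside the name pattern and changed by 0.26 ± 0.19 (adjusted p = 0.368), or by 0.15 without growth replicate 1 and 0.17 without differentiation replicate 2. The small e subunits Atp6v0e (0.04 ± 0.18) and Atp6v0e2 (-0.21 ± 0.19) had overlapping groups. In the ATP-hydrolysing sector V1, 0 of 11 genes passed, beside 8.64% of all clusters higher and 7.52% lower. At an unadjusted p under 0.05, 1 was higher and 1 lower (9.09% each, beside 17.8% and 15.2% of all clusters). Atp6v1a, the catalytic subunit, went from 2012 and 2209 to 3259 and 2956 (0.55 ± 0.18; adjusted p = 0.0764). The regulatory B subunit was represented by the ubiquitous Atp6v1b2 (0.23 ± 0.19) and the kidney form Atp6v1b1, which gave 117 and 91.1 in growth and 70 and 64.3 in differentiation (-0.53 ± 0.19; adjusted p = 0.104). The remaining V1 genes ranged from -0.22 (Atp6v1c2) to 0.44 (Atp6v1e2).

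Direction went with the brightness of the cluster, which reflects probes as well as RNA and does not rank the genes by abundance. Of the 29 genes among the brightest 25% of all clusters, 25 had both differentiation arrays above both growth arrays (86.2%, beside 40.3% of all such bright clusters) and 0 had both below (37.4%). Their median change was 0.42, beside 0.03 for all such clusters. Of the 29 genes 3 passed limma's threshold, all of them higher (10.3%, beside 11.3% of all such clusters), and 14 were higher at an unadjusted p under 0.05 (48.3%, beside 22.6%). The next brightest 25% held 16 genes, 7 of which rose (43.8%, beside 540 of the 4164 clusters of that brightness). Below the median intensity of all clusters lay 22 genes, of which 1 rose (4.55%, beside 5.15% of all such dim clusters), 2 fell (9.09%, beside 3.57%) and 19 did not pass. The median changes there were -0.16 for the 11 genes among the dimmest 25% and -0.21 for the other 11, beside -0.05 and -0.07 for all clusters. Leaving out the dimmest 25% before the fit gave 18 of 56 genes higher and 2 lower, when 15.7% of the clusters kept were higher and 12.8% lower. Leaving out the dimmest 50% gave 22 of 45 genes higher and 0 lower, when 23.8% were higher and 19.6% lower.

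**Figure D3:**
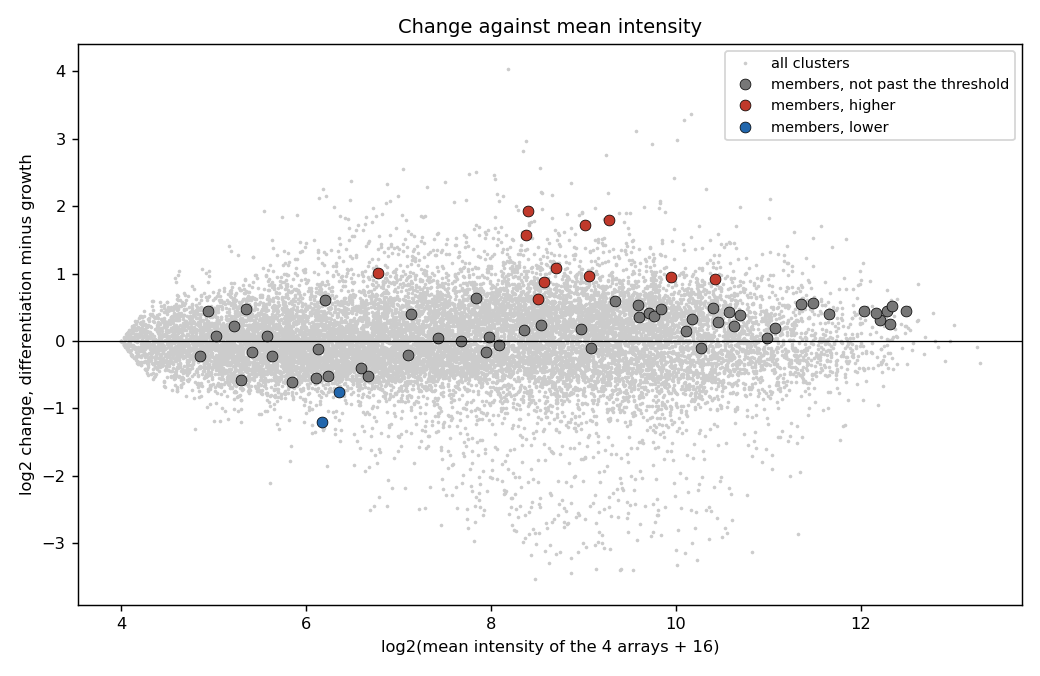
Log2 change (differentiation minus growth) against log2 of the mean intensity over the 4 arrays plus 16, for all 16658 clusters (light grey) and the 67 genes (large points, red higher, blue lower, dark grey not past the threshold). Of the 29 genes among the brightest 25% of clusters 28 lie above 0, and the 2 genes that fell lie at low intensity.

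The promoters of lysosomal genes are known for an E-box type site, bound by TFEB, TFE3 and MITF, with the core CACGTG. The RefSeq promoter windows (GRCm38.p6, 250 bases before to 50 after a start site) covered 55 of the 67 genes. The letters CACGTG, which read the same on both strands, occurred in windows of 10 of the 55 (18.2%), beside 10.2% of the 11829 genes on the array that had a window and 7.15% of all 32851 windows. The longer TCACGTGA, which contains that core, occurred in 5 of the 55 (9.09%), beside 1.71% and 0.974%. The same run with a G before it and a C after it occurred in 0 of the 55, beside 0.575% and 0.326%. A match is a description of the letters and not a bound site. Stretches of 30 bases around the match are printed for the 5 genes with TCACGTGA and for Ctsf, the 1 gene with CACGTG among the 9 covered genes that rose, on the strand of the gene from 5′ to 3′ with the match in capitals.
Atp6v0d1: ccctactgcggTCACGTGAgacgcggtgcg
Atp6v0e: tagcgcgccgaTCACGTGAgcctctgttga
Atp6v1a: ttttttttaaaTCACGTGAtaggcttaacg
Ctsa: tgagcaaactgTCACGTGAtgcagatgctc
Ctsd: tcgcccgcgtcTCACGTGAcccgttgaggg
Ctsf: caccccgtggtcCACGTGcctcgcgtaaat
The stretches lie at chr8:105566050-105566079 (minus strand, Atp6v0d1), chr17:26676387-26676416 (plus, Atp6v0e), chr16:44139373-44139402 (minus, Atp6v1a), chr2:164833749-164833778 (plus, Ctsa), chr7:142387908-142387937 (minus, Ctsd) and chr19:4855074-4855103 (plus, Ctsf). The core begins 3 bases before the start site in Atp6v0d1, 12 in Ctsa, 79 in Ctsf, 98 in Ctsd and 131 in Atp6v1a, and after it in Atp6v0e. In Ctsa the core of a second match begins at base 6, counted from the start site itself, and Ctsd holds another match 245 bases before the start site.

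The 10 genes with CACGTG were Atg5, Atp6v0b, Atp6v0d1, Atp6v0e, Atp6v1a, Ctsa, Ctsd, Ctsf, Ctsl and Lamp1. Their changes ran from -0.16 (Atg5) to 1.72 (Ctsf) with a median of 0.42, beside 0.29 for the 45 without it. All of the 10 but Atg5 and Ctsf lay among the brightest 25% of clusters. The 29 genes of that brightness also had a median of 0.42, and the contrast was not tested apart from brightness. For 8 of the 10 both differentiation arrays lay above both growth arrays. The same held for 58.2% of the 67 genes, 86.2% of the 29 bright ones and 30.8% of all clusters. The 5 with TCACGTGA changed by 0.04 (Atp6v0e) to 0.55 (Atp6v1a), and 0 of them passed.

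Related genes outside the name pattern were taken from 6 lists. Of 150 measured, 39 rose (26.0%, beside 8.64% of all clusters) and 0 fell (beside 7.52%) in limma. At an unadjusted p under 0.05, 70 were higher (46.7%, beside 17.8%) and 5 lower (3.33%, beside 15.2%). The median change was 0.42. The number of these genes that rose fell when any 1 array was left out, and so did the share of all clusters called higher.

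Of 29 other autophagy genes 11 rose (37.9%, beside 8.64% of all clusters), with a median of 0.55. Bnip3, a receptor for the removal of mitochondria, gave 143 and 114 in growth and 395 and 430.2 in differentiation (1.57 ± 0.19; adjusted p = 0.00167). Trp53inp2, which binds Atg8 proteins and promotes autophagosome formation, went from 402 and 342 to 1039 and 1104 (1.49 ± 0.19), and its relative Trp53inp1 rose by 1.23 ± 0.18. Calcoco1, a receptor for the endoplasmic reticulum, went from 517 and 619 to 1952 and 1442 (1.54 ± 0.22). All 4 had groups well apart, and their calls held when any 1 array was omitted. Pik3c3, the catalytic subunit of the kinase complex that contains Becn1, gave 261 and 297 in growth and 459 and 421 in differentiation and lay just outside the threshold (0.63 ± 0.18; adjusted p = 0.054).

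Of 42 lysosomal hydrolases and activators other than cathepsins, 16 rose (38.1%, beside 8.64% of all clusters), with a median of 0.58. For 36 both differentiation arrays lay above both growth arrays (85.7%, beside 30.8%). Arsg, a sulfatase, rose from 35.4 and 41.6 to 108 and 152 (1.41 ± 0.21). Dnase2a, the acid nuclease, rose from 222 and 203 to 454 and 614 (1.25 ± 0.21). Naglu, which degrades heparan sulfate, rose by 1.10 ± 0.19, and the peptidase gene Cpq by 1.04 ± 0.18. Without differentiation replicate 2 none of these 4 passed, and without differentiation replicate 1 Naglu and Cpq did not. Of 33 membrane, transport and sorting genes 4 rose (12.1%, beside 8.64% of all clusters). They were the sialic acid transporter gene Slc17a5 (0.79 ± 0.18) and Scarb2, which carries glucocerebrosidase to lysosomes (0.79 ± 0.18). The others were the ion channel gene Tmem175 (0.72 ± 0.19) and the cystine transporter gene Ctns (0.71 ± 0.19). None of these 4 passed with an offset of 1, nor when growth replicate 1 or either differentiation array was omitted, and Tmem175 and Ctns also not without growth replicate 2. Of 8 further V-ATPase subunits and assembly factors, Dmxl1 (0.75 ± 0.20) and Atp6ap2 (0.69 ± 0.19) rose (25%, beside 8.64% of all clusters). Atp6ap2 was at the threshold (adjusted p = 0.0483), and its call ended with the replicate block (adjusted p = 0.0534), median centring, a robust prior, an offset of 1 and when any 1 array was omitted. Dmxl1 no longer passed with an offset of 1, nor when growth replicate 1 or either differentiation array was left out. Of 6 cathepsin inhibitors 0 passed, beside 8.64% of all clusters higher and 7.52% lower. At an unadjusted p under 0.05, 2 were higher (33.3%, beside 17.8%) and 1 lower (16.7%, beside 15.2%).

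Among 32 genes of nutrient signalling at the lysosome 6 rose (18.8%, beside 8.64% of all clusters), with a median of 0.30. This pathway centres on mTORC1, a kinase complex that blocks the Ulk1 complex and TFEB when amino acids are plentiful. Sesn3, a sestrin, which restrains mTORC1, gave 177 and 194 in growth and 601 and 523 in differentiation (1.52 ± 0.18; adjusted p = 0.00165), and Sesn1 rose by 1.15 ± 0.19. Castor2, of the arginine sensor family that also restrains mTORC1, rose from 214 and 215 to 597 and 513 (1.31 ± 0.18). Rragd, a Rag GTPase that brings mTORC1 to the lysosome, rose by 0.85 ± 0.18. The call of Rragd ended with an offset of 1 (adjusted p = 0.0605) and when growth replicate 1 or either differentiation array was omitted, and that of Sesn1 without differentiation replicate 2. Mtor, the kinase itself, gave 240.4 and 262 in growth and 310.1 and 287 in differentiation and did not pass (0.24 ± 0.18; adjusted p = 0.39).

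**Figure D4:**
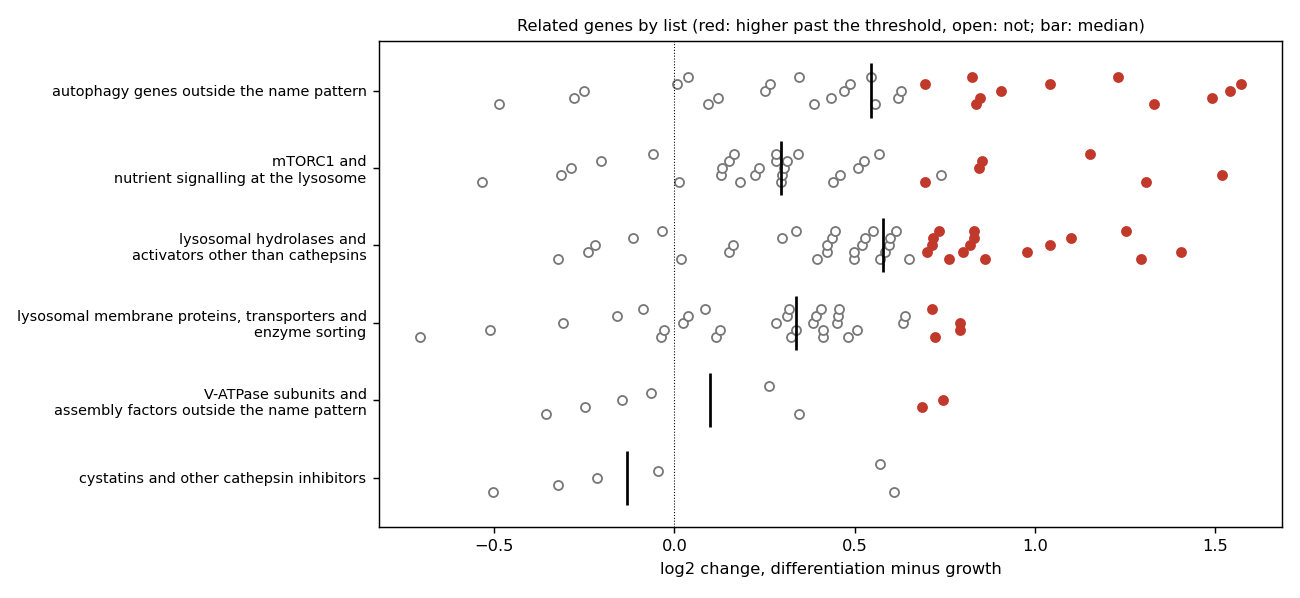
Log2 change (differentiation minus growth) of the 150 related genes in 6 lists, where each point is a gene (red rose, open did not pass), vertical offsets within a list carry no meaning, and the bar is the list's median. The medians are 0.55, 0.30, 0.58, 0.34, 0.10 and -0.13 from top to bottom, and the red points lie at changes of 0.69 and above.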

How the data were processed

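Each of the 4 arrays has 1 deposited linear intensity for each transcript cluster. Per the submitters' processing notes the authors used PLIER, which combines the probes of a cluster, and build mm9; the sources used here do not give background correction, scaling between arrays or versions. Dim values cannot be told from background, and the number of arrays limits precision. The platform annotation gave 1 symbol to 14938 clusters, several to 989 and none to 731. By Entrez identifier 14883 of the first were found in RefSeq GRCm38.p6 and changed no symbol. The brightest cluster stood for a gene. Intensities were transformed as log2(value + 16) and fitted with limma 3.58.1 in R 4.3.3 (two-sided moderated test, lmFit and eBayes). P-values were adjusted by Benjamini-Hochberg over the 16658 clusters, with threshold 0.05 and no covariate. Genes, lists and naming rule were chosen with earlier results of these data known. The text names every gene past the threshold, fixed key genes and the brightest and lowest-p gene of each role, up to 4 per related list, and other members by role. The fit was tested on a single simulated draw, with changes placed only in clusters above the median intensity. The share of false calls there exceeded the nominal threshold, and a single draw does not give the error rate of these data.

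Results were also computed with an offset of 1, quantile normalization, median centring, 2 filters on dim clusters, an intensity trend or robust prior, the replicate number as a block, each array left out (its partner assumed to vary like the other group), a minimum change of 1.5-fold (treat) and the mean over a gene's clusters. RefSeq promoter windows were read on the gene's strand.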

Additional observations from a re-analysis of the deposited data

How the results depend on the processing

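Quantile normalization, median centring, a robust prior and the mean over a gene's clusters kept the counts within 1.5 times of those reported. With an offset of 1, 5 members were higher and 0 lower, 13 related genes were higher, and 528 and 622 of all clusters passed. Without the dimmest 25% of clusters 18 members were higher and 1 related gene was lower. Without the dimmest 50% 22 members were higher and 0 lower, their median change was 0.42, and 65 related genes were higher and 3 lower. With an intensity trend in the prior 28 members and 74 related genes were higher, 4 related genes were lower, and 2415 and 1947 clusters passed. Against a minimum change of 1.5-fold 4 members and 4 related genes were higher, 0 members lower, and 204 and 355 clusters passed. With 1 array left out, 3 to 10 members were higher and 0 to 1 lower, with medians of 0.26 to 0.43 (0.43 without growth replicate 2), 7 to 24 related genes were higher, and 305 to 1189 clusters were higher and 446 to 839 lower. Gabarapl2 changed sign to -0.27 without growth replicate 1 and to -0.03 without differentiation replicate 1. The cause of these differences was not tested. The labels' replicate numbers say nothing of shared cultures, and same-numbered arrays did not deviate together (r = -0.037). With the number as a block 10 members were higher and 2 lower, Atg4c being lost.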

Other observations

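The nearest measured genes on either side of the 13 members past the threshold were read from the RefSeq gene order. Of these 26 neighbours 4 were higher (15.4%, beside 8.64% of all clusters) and 2 lower (7.69%, beside 7.52%) past the threshold in limma. Next to Ctsf lies Actn3, the fast-fibre alpha-actinin gene, which went from a mean intensity of 196 to 782 (log2 change 1.91 ± 0.19 SE). Next to Ctsc lies Rab38, a GTPase of lysosome-related organelles, which rose by 1.26 ± 0.19, and next to Ctso lies the growth factor gene Pdgfc (1.28 ± 0.19). Ulk1 lies between Hscb, which rose (0.81 ± 0.19), and Pus1, which fell (-0.78 ± 0.18), and Usp1 beside Atg4c fell (-1.65 ± 0.21). The neighbours of Map1lc3a and Atp6v0d2 did not pass. The genes named here were chosen after their values were seen, and no test of position was made.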
